A study of Mus musculus with 12 samples.

Results

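The Hox genes encode homeodomain transcription factors that set positional identity along the head-to-tail axis of the embryo. In mouse they lie in 4 clusters, HoxA to HoxD, which arose by duplication of an ancestral cluster, so that genes holding the same number in different clusters are paralogs. Within a cluster, genes of low number are active further forward and genes of high number further back, and adult stromal cells keep much of the pattern of the site they came from. Hox proteins bind DNA together with the TALE cofactors of the Pbx and Meis families, Polycomb and trithorax complexes hold the clusters silent or active, and retinoic acid and the Cdx factors turn them on in the embryo.

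The members described here were the protein-coding genes whose symbol is Hox, a cluster letter and a paralog number, which gave 39 of the 47643 genes listed. The rule itself used only symbol and biotype. The set was, however, chosen from earlier results in which the age difference of Hoxb3 was already known, so that difference is given as a description and supports nothing further. HoxA held 11 members on chromosome 6, HoxB 10 (chr11:96194316-96368256), HoxC 9 (chr15:102921103-103036852) and HoxD 9 (chr2:74668310-74765142). Positions are those of a GENCODE annotation on GRCm38, the assembly of mm10. Paralog groups 1 to 4 are called anterior here (12 members), groups 5 to 8 central (11 members) and groups 9 to 13 posterior (16 members).

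The study profiled bulk poly(A) RNA from pieces of pancreatic tumor labelled with KPC4662, a mouse pancreatic carcinoma line, in 6 libraries from old mice (Old tumor) and 6 from young mice (Young tumor). All libraries carry the same cell line and the same tissue label. The labels give neither the ages in numbers nor the strain, sex or site of implantation, and leave it unsaid whether the pieces are from separate mice, so the tests measure only the spread between pieces. The labels call the cells epithelial, and keratins were abundant, with a summed level of 8 epithelial markers of 5207 to 8326 TPM in Old tumor and 5308 to 9136 TPM in Young tumor. Markers of fibroblasts, vessels and leukocytes were also present, so a level in these libraries is that of the whole piece. In such bulk RNA, fewer cells of a type and less RNA per cell cannot be told apart. Depth ran from 17.8M to 24.1M counts per library.

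The clusters also hold microRNA genes whose products are known to act on Hox transcripts. Their mature sequences, from RefSeq (GRCm38.p6), are shown because the same seed recurs in different clusters. Capitals mark the seed, bases 2 to 8. The first pair lies in HoxB and HoxD, and in the second pair miR-196a is encoded in both HoxB and HoxC and miR-196b in HoxA.
miR-10a-5p: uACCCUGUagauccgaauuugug
miR-10b-5p: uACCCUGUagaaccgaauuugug
miR-196a-5p: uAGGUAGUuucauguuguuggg
miR-196b-5p: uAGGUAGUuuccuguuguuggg
The miR-10 pair shared the seed ACCCUGU and the miR-196 pair the seed AGGUAGU. Poly(A) libraries do not measure mature microRNAs, and all 7 genes annotated as microRNA in the clusters were listed at 0 counts in every library. Mir196b lies within the exons of Hoxa9 on the same strand, over 85 bp.

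Upstream sequence was available for 22 of the 39 members, in 24 windows of 250 bases. Windows of 3 members are shown in the direction of transcription: Hoxb4, the member with the highest mean level, and Hoxa9 and Hoxd10, posterior members counted almost wholly in 1 library. Capitals mark AGGTCA, a nuclear receptor core site, here found on the opposite strand as TGACCT.
Hoxb4 (chr11:96318017-96318266, plus strand): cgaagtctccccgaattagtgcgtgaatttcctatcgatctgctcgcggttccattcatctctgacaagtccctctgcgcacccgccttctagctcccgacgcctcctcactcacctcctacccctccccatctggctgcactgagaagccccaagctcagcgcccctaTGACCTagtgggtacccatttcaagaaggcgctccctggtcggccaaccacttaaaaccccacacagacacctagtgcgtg
Hoxa9 (chr6:52227371-52227620, minus strand): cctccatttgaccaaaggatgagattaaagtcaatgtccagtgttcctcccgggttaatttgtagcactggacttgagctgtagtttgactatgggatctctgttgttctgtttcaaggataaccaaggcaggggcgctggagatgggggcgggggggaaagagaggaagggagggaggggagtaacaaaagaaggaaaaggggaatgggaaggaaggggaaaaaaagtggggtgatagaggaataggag
Hoxd10 (chr2:74691641-74691890, plus strand): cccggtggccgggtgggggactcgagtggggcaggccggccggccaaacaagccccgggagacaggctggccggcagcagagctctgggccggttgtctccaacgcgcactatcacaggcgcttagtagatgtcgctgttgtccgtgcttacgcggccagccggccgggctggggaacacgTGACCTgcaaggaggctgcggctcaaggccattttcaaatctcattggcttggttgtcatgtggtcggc
The Hoxb4 window held 14 CpG dinucleotides, the Hoxa9 window 3 and the Hoxd10 window 20. Over the 24 Hox windows the median was 12.5 CpG, against 6 over all 32851 RefSeq windows of that length. AGGTCA on either strand was in 6 of the 24 Hox windows and in 14.0% of all windows. TAATTA, a homeodomain core, was in 2 of 24 and in 4.84% of all, and TGATNNAT, a composite Hox and Pbx site, in 4 of 24 and in 7.68% of all, with both strands searched and overlaps among the motifs allowed. These matches describe letters and not binding.

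One library stood apart before any comparison was made. Old tumor 1 held 70.2 TPM summed over the members, whereas the other 5 Old tumor libraries held 13.8 to 26.5 TPM and the 6 Young tumor libraries 13.1 to 23.4 TPM. Of the 35 members with any count, 28 had their highest count in Old tumor 1, among them all 14 that were abundant enough to test. The share of all genes with their highest count there was not counted, so this does not set the members apart from other genes. Marker lists of other cell types moved with it. The 9 fibroblast markers summed to 3823 TPM in Old tumor 1, against at most 1676 TPM in the other 11 libraries, and all 9 were highest there. Smooth muscle and mural markers summed to 401 TPM against at most 124, endothelial markers to 136 against at most 103, adipocyte markers to 82.0 against at most 22.8, and leukocyte markers to 1584 against at most 996. All 5 smooth muscle markers, all 5 endothelial and all 4 adipocyte markers were highest in Old tumor 1, as were 6 of 9 leukocyte and 3 of 4 mesothelial markers. Its epithelial sum, 5207 TPM, was the lowest of the 12, close to the 5308 TPM of Young tumor 2. Krt8 and Krt18 were lowest in Old tumor 1. Epcam, Krt7, Muc1 and Cldn4 were lower in Old tumor 5, and Krt19 and Cdh1 in Young tumor 2. The part of these cell types in the Hox levels was not tested. Cluster sums, mean levels and the differences of tested members are therefore also given without Old tumor 1. The sums of the remaining lists were not highest there, apart from that of gut. Schwann and neural markers summed to 10.6 to 18.5 TPM in Old tumor and 9.57 to 16.8 TPM in Young tumor, acinar markers to 18.2 to 31.5 and 16.8 to 63.4 TPM, and mesothelial markers, almost wholly Msln, to 332 to 460 and 240 to 376 TPM. Kidney markers summed to at most 1.31 TPM, with Umod at 0 in all libraries. Of the gut smooth muscle and neuron list, Actg2 was highest in Old tumor 1 at 45.0 TPM, against at most 17.8 TPM elsewhere.

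**Figure D1:**
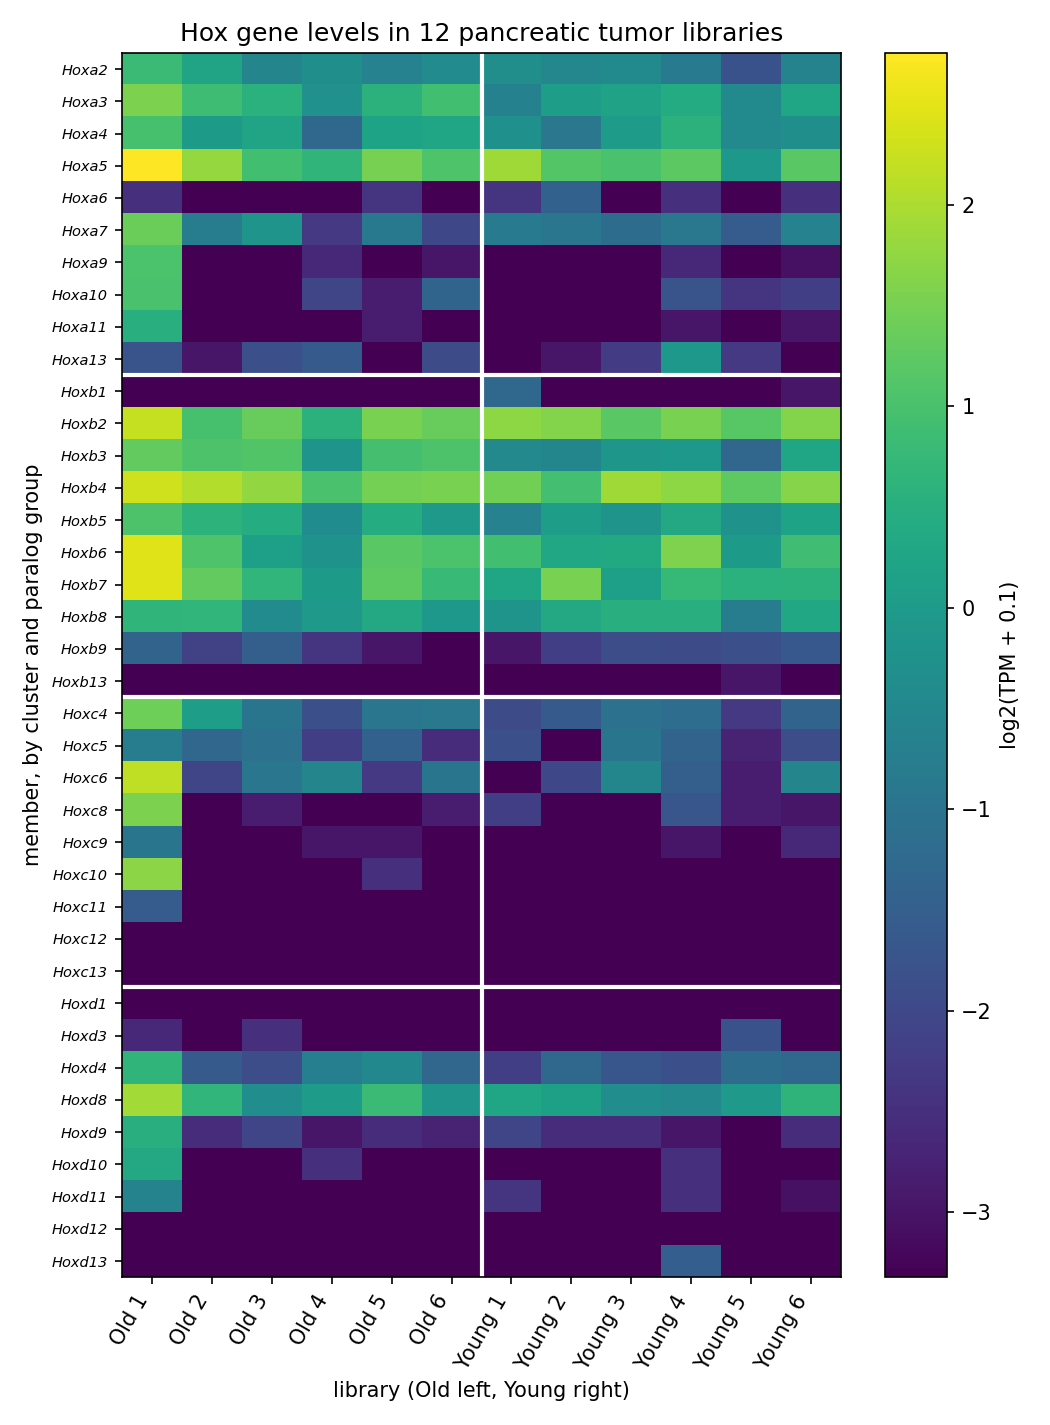
Level of 38 of the 39 members, as log2(TPM + 0.1) on the colour scale, by library (Old tumor left, Young tumor right) and by cluster and paralog group from top to bottom. HoxA and HoxB members of groups 2 to 8, apart from Hoxa6, are present in all libraries, while most posterior members stand out in Old tumor 1 alone.

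Most of the Hox RNA in these tumors came from the anterior and central parts of HoxB and HoxA. Levels are in TPM, which corrects for gene length and so allows genes to be compared. HoxB summed to 14.7 ± 6.30 TPM in Old tumor and 11.5 ± 1.85 TPM in Young tumor (SD, n = 6 each), and HoxA to 8.87 ± 6.37 and 5.49 ± 1.50 TPM. HoxC summed to 3.25 ± 5.31 TPM in Old tumor and 0.785 ± 0.485 TPM in Young tumor, and HoxD to 2.69 ± 2.75 and 1.38 ± 0.285 TPM. HoxB exceeded HoxA in 12 of 12 libraries, HoxA exceeded HoxC and HoxD in 12 of 12, and HoxD exceeded HoxC in 9 of 12. Without Old tumor 1 the Old tumor means were 12.4 TPM for HoxB, 6.32 for HoxA, 1.08 for HoxC and 1.58 for HoxD. For each cluster the Old tumor and Young tumor ranges overlapped.

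Hoxb4, which takes part in hindbrain patterning and in blood stem cell renewal, had the highest mean level over the 12 libraries, 3.02 TPM. Hoxb2, a hindbrain gene, followed at 2.65 TPM and Hoxa5, needed for lung and skeletal patterning, at 2.57 TPM. Hoxb7 and Hoxb6 averaged 1.93 and 1.91 TPM. Neighbours in this order differed by less than the spread over libraries. Hoxb4 exceeded Hoxb2 in 9 of 12 libraries, with a mean difference in level of 0.38 TPM and an SD of 0.86. Hoxb7 exceeded Hoxb6 in 6 of 12. A second tier at about the same level held Hoxa3, Hoxb3, Hoxd8, Hoxb8, Hoxb5 and Hoxa4, with means of 1.28, 1.27, 1.25, 1.06, 1.06 and 0.93 TPM. Every step between neighbours within that tier was smaller than its SD. Over the 11 libraries without Old tumor 1 the same 5 members led, with means of 2.86 TPM for Hoxb4, 2.47 for Hoxb2, 2.20 for Hoxa5, 1.62 for Hoxb7 and 1.60 for Hoxb6.

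The leading member of each cluster ranged widely among the old tumors. Hoxb4 had a lowest, median and highest level of 1.92, 3.04 and 4.88 TPM in Old tumor and 1.82, 2.85 and 3.61 TPM in Young tumor. Hoxa5, the leading HoxA member, had 1.46, 2.38 and 6.64 TPM in Old tumor and 0.84, 2.12 and 3.62 TPM in Young tumor. Hoxd8 led HoxD with 0.69, 1.22 and 3.66 TPM in Old tumor and 0.62, 0.94 and 1.44 TPM in Young tumor. The groups overlapped for all of these, and the highest value of each was in Old tumor 1. Hoxc6 led HoxC by mean TPM, but largely through that library, which held 4.44 TPM while the other 5 Old tumor libraries held 0.10 to 0.58 TPM and the Young tumor libraries 0.00 to 0.59 TPM. On CPM, a depth-scaled count that does not correct for length, Hoxc4 led the cluster instead.

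Posterior members had few counts in 10 libraries and more in Old tumor 1 and Young tumor 4. Their counts summed to 370.58 in Old tumor 1, 58 in Young tumor 4, of which 30 were Hoxa13, and 7 to 21 in each of the other libraries. The posterior sum was 12.5 TPM in Old tumor 1, 0.23 to 0.66 TPM in the other 5 Old tumor libraries and 0.22 to 1.77 TPM in Young tumor, where Young tumor 4 was the highest. Posterior genes made up 17.8% of the summed Hox TPM in Old tumor 1, 7.55% in Young tumor 4, and 0.868% to 4.78% in the remaining libraries. Of the 16 posterior members, 9 reached 10 counts in Old tumor 1, 1 did so in Young tumor 4 and 0 in any other library. No posterior member passed the filter on low counts, so none was tested.

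**Figure D2:**
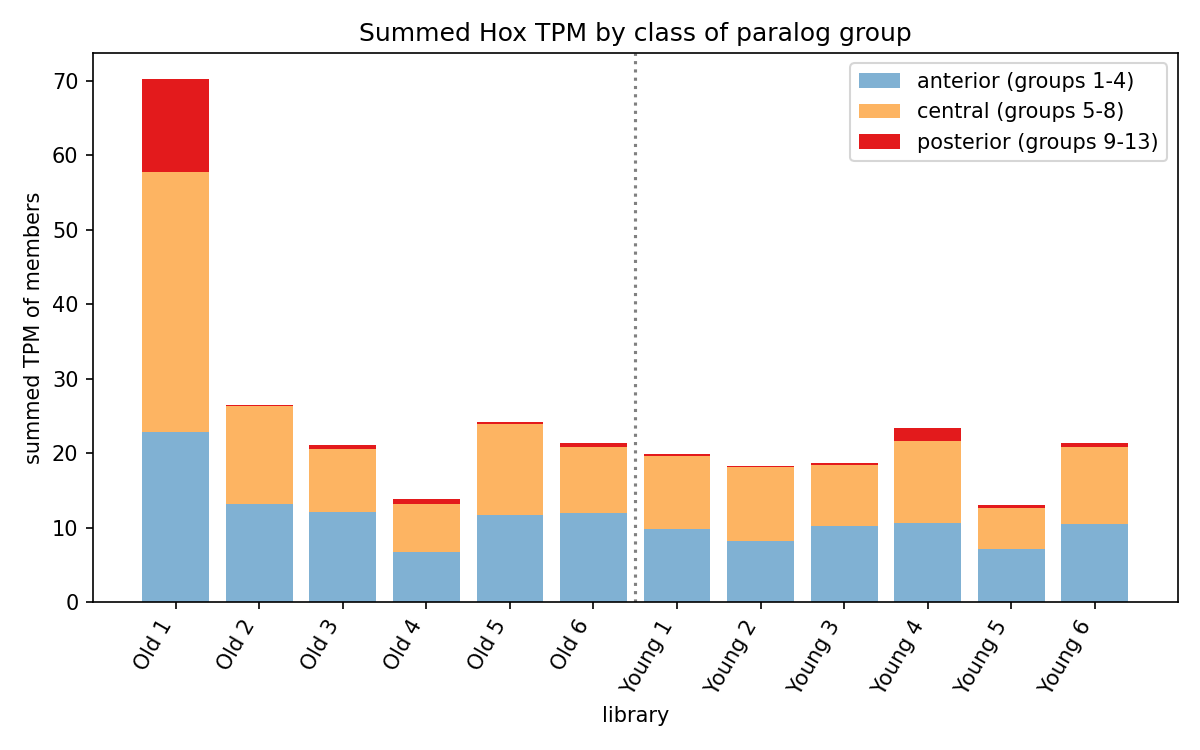
Summed TPM of the members in each library, stacked by class of paralog group, with the 6 Old tumor libraries left and the 6 Young tumor libraries right. Old tumor 1 reaches 70.2 TPM with 12.5 TPM from posterior members, and the other 11 libraries lie between 13.1 and 26.5 TPM.

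The posterior signal in Old tumor 1 covered HoxA, HoxC and HoxD but not HoxB. Hoxa9 and Hoxa10, regulators of blood progenitors and of the female reproductive tract, had 72 and 49 expected counts there, against at most 3 and 4 in any other library. Hoxa11, which patterns the forelimb and uterus, had 39, against at most 1 elsewhere. In HoxC, Hoxc10 had 84.77 counts against at most 2, Hoxc9 had 14 against at most 2, and Hoxc11 had 7 against 0. In HoxD, Hoxd9 had 40 against at most 4, Hoxd10 had 30 against at most 2, and Hoxd11 had 21.81 against at most 4. Hoxb9, the only HoxB gene of groups 9 to 11, had 10 counts in Old tumor 1 against 0 to 8 elsewhere. In all, 9 of the 10 members of groups 9 to 11 had more counts in Old tumor 1 than in the other 11 libraries together. The central HoxC genes Hoxc8 and Hoxc6 followed the same pattern, with 87 and 88 counts in that library against at most 6 and 13 in the others. Of 15 noncoding and other neighbours of the Hox genes with at least 10 counts over the 12 libraries, 10 had their highest count in Old tumor 1, and 2 had over 50% of their counts there. The share over all genes was not counted for these either. Those 2 were Hoxa11os, antisense to Hoxa11, with 25.95 counts against at most 2 elsewhere, and Gm28309, with 11.19 against 0. Both reached 10 counts only through Old tumor 1, so their large share there followed from that minimum. Haglr, at the HoxD cluster, had only 9 counts in all and is not among the 15. Picked after its values were seen, it had 7 counts in Old tumor 1 against at most 1 elsewhere. Reads of Hoxa11 and Hoxa11os, which share 800 bp of exon, and of Hoxc10 and Hoxc5, which share 166 bp, may have been divided between them. The same holds for Gm28309, which shares 455 bp of exon with Hoxd11 and 104 bp with Hoxd10 on the same strand.

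In the most posterior paralog group, Hoxb13 and Hoxc13 had at most 1 count in any library, and the other members behaved differently. Hoxa13 and Hoxd13, which pattern the digits, hindgut and genital tract, were highest in Young tumor 4. Hoxa13 had 30 counts there, 0 to 8 in the 6 Old tumor libraries and 0 to 3 in the other Young tumor libraries. Hoxd13 had 9 counts there and 0 in all others, where a count of 0 allows up to 3 counts in a library. Hottip, the noncoding RNA beside Hoxa13, had 2 counts in Young tumor 4 and 1 in Old tumor 6. Young tumor 4 also had the highest sum of acinar markers, 63.4 TPM, against 18.2 to 31.5 TPM in Old tumor and 16.8 to 57.7 TPM in the other Young tumor libraries, while its fibroblast sum, 1104 TPM, lay within the range of the others. Some smooth muscle genes were also high in that library among the young tumors. The smooth muscle and mural list summed to 93.6 TPM there, against 57.5 to 88.6 TPM in the other Young tumor libraries. Acta2 was only slightly higher there, and Rgs5 was lower there than in most young tumors. Myh11, smooth muscle myosin, had 3.96 TPM there, against at most 0.94 in the other Young tumor libraries, Cnn1, calponin, 6.21 against at most 1.52, and Des, desmin, 9.99 against at most 7.18. The gut smooth muscle and neuron list, almost wholly Actg2, summed to 14.3 TPM there and to 6.36 to 8.61 TPM in the other Young tumor libraries. The smooth muscle and mural list was higher in Old tumor 1, 2 and 5, at 401, 119 and 124 TPM. Hoxa13 had 3, 1 and 0 counts in those libraries. Myh11, Cnn1, Des and Actg2 were also higher in Old tumor 1 than in Young tumor 4. The part of these cell types in the level of Hoxa13 was not tested.

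At the other extreme, 4 members had 0 counts in all 12 libraries, namely Hoxc12, Hoxc13, Hoxd1 and Hoxd12. Hoxb13, a posterior gene known from prostate, had 1 count in 1 library, and Hoxb1, an early hindbrain gene, had 5 counts in Young tumor 1 and 1 in Young tumor 6. Hoxd3 reached at most 3.12 counts, but its exons overlap those of Hoxd4, the read-through gene Gm28230 and antisense Hoxd3os1, so its low value is uncertain. Hoxa6, Hoxc5 and Hoxd4 were low, with means over 12 libraries of 0.06, 0.23 and 0.40 TPM.

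**Figure D3:**
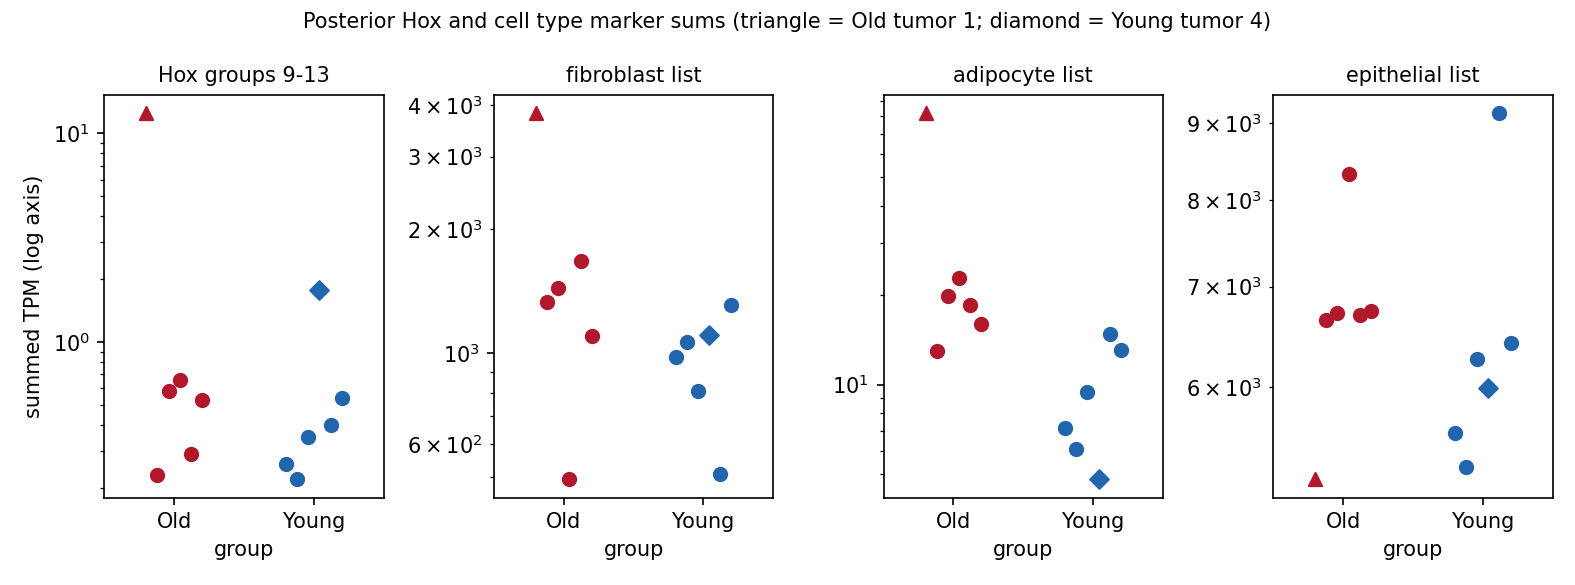
Summed TPM of the 16 posterior members and of 3 cell type marker lists, on log axes, by group (Old left, Young right), each point a library. Old tumor 1 (triangle) is the highest for posterior Hox, fibroblast and adipocyte sums and the lowest for the epithelial sum; Young tumor 4 (diamond) is the highest Young tumor library for posterior Hox.

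The design asks how tumors of old mice differ from those of young mice. Counts were compared with edgeR's quasi-likelihood test over all 16013 genes that passed the filter, and a gene was called at a Benjamini-Hochberg adjusted p under 0.05. That test called 362 genes, 2.26% of those tested, with 127 higher in Old tumor (0.793%) and 235 lower. Of the Hox members 14 of 39 passed the filter: 5 in HoxA (Hoxa2, Hoxa3, Hoxa4, Hoxa5 and Hoxa7), 7 in HoxB (Hoxb2 to Hoxb8), Hoxc4 and Hoxd8. Among them 1 was called, Hoxb3, which was higher in Old tumor. Nothing is read from that count, because the set was proposed with Hoxb3 known. The median log2 fold change over the 14 was 0.43, against 0.03 over all tested genes, with 12 values above 0 and those of Hoxb2 and Hoxb8 below.

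That median rested on Old tumor 1. Without this library the median over the 14 was -0.017. The count of genes called over the whole table was then 1106 of 16124 (6.86%), and Hoxb3 was again the 1 Hox member called. Hoxa5 had a log2 fold change of 0.36 (SE 0.39) with all libraries and -0.074 (SE 0.31) without Old tumor 1, and Hoxb4 had 0.11 (SE 0.23) and -0.063 (SE 0.21).

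**Figure D4:**
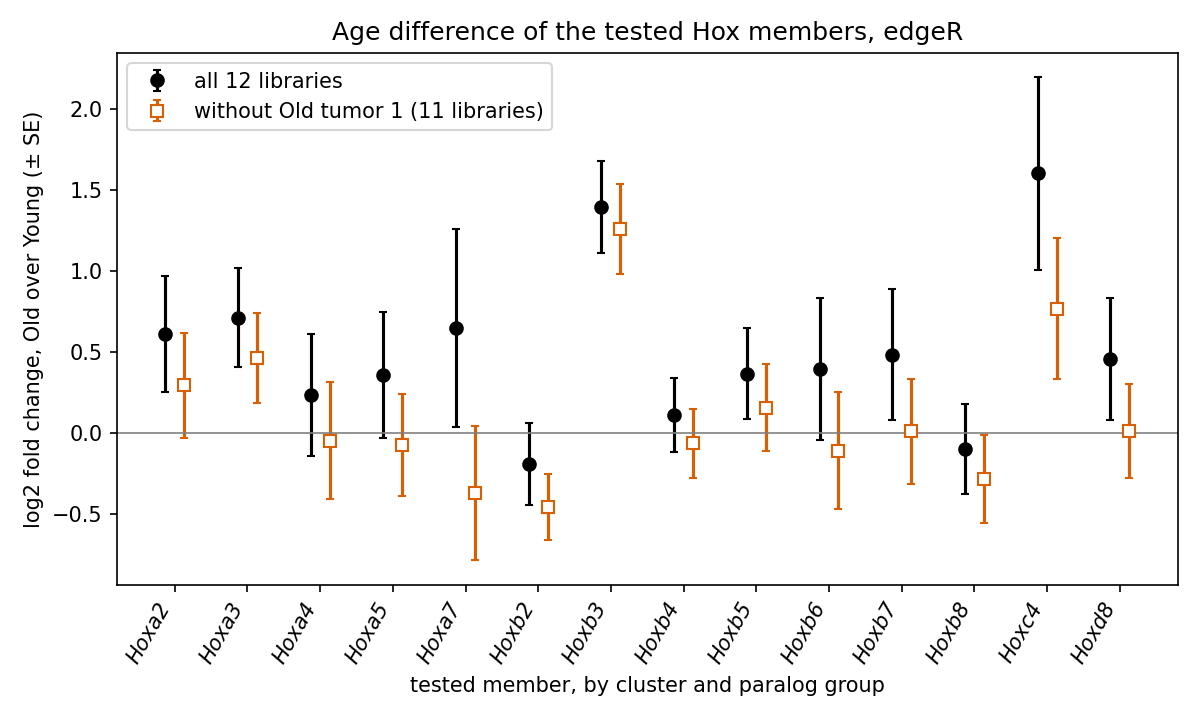
Log2 fold change of Old tumor over Young tumor with its SE for the 14 tested members, by edgeR's quasi-likelihood fit, with all 12 libraries (filled) and without Old tumor 1 (open). Hoxb3 stays at 1.40 and 1.26, while most other members lie closer to 0 or below it without Old tumor 1.

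Hoxb3, a hindbrain and neck patterning gene on chr11:96323326-96347930 (plus strand), was the called member. Its levels in Old tumor 1 to 6 were 2.34, 1.98, 2.06, 0.79, 1.86 and 1.97 TPM, against 0.63, 0.59, 0.83, 0.85, 0.30 and 1.09 TPM in Young tumor 1 to 6. All old libraries but Old tumor 4 lay above every young library, and Old tumor 4 lay below Young tumor 3, 4 and 6. On depth-scaled counts the mean was 3.02 ± 0.91 CPM in Old tumor and 1.14 ± 0.37 CPM in Young tumor (SD, n = 6 each), which gave a log2 fold change of 1.40 (adjusted p = 0.033 by edgeR, SE 0.28), with 6 of 6 old libraries above the young median. Old tumor 4 also had the lowest fibroblast sum of the 12, 492 TPM. Marker sums also differed in range between the groups without Old tumor 1, although all of the ranges given here overlapped. Fibroblast markers summed to 492 to 1676 TPM in Old tumor and 508 to 1307 TPM in Young tumor. Smooth muscle and mural markers summed to 49.0 to 124 and 57.5 to 93.6 TPM. Adipocyte markers summed to 13.03 to 22.8 TPM in Old tumor and 4.8 to 14.8 TPM in Young tumor. That sum was mostly Cidec, and the other adipocyte markers were low in both groups. Mesothelial markers, almost wholly Msln, summed to 367 to 460 and 240 to 376 TPM, and endothelial markers to 36.0 to 103 and 38.6 to 51.1 TPM. Their part in the difference of Hoxb3 was not tested. Without Old tumor 1 the log2 fold change was 1.26 (adjusted p = 0.023 by edgeR, SE 0.28). Leaving out 1 other library gave 1.28 to 1.57, but the call was lost without Old tumor 2, 3, 5 or 6 or Young tumor 1, 2, 4 or 5, where edgeR adjusted p lay between 0.057 and 0.077.

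Its count depends on how reads were divided with its antisense partner. Hoxb3os is a noncoding gene on the opposite strand whose exons cover 2250 of the 4251 exonic bases of Hoxb3 and 953 of the 3488 of Hoxb2. Hoxb2, Hoxb3 or Hoxb3os had a fractional count in 11 of 12 libraries, and in all 11 the counts of these 3 genes summed to a whole number within 0.02. Hoxb5 and Hoxb5os did the same in 4 of 4 libraries with a fraction. Reads were therefore divided between genes on opposite strands in the deposited counts, although the library kit keeps strand. Hoxb3os had a lowest, median and highest count of 0, 25.4 and 123 in Old tumor and 13.8, 27.2 and 70.9 in Young tumor, with a log2 fold change of 0.10 (adjusted p = 0.95 by edgeR, SE 0.75). Hoxb3 took 44.9% to 100% of the pair's counts in Old tumor (median 75.4%) and 23.9% to 61.7% in Young tumor (median 46.1%).

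With the pair summed, the age difference of the locus was smaller. The sum of Hoxb3 and Hoxb3os had 34, 99.2 and 224 counts as lowest, median and highest in Old tumor, and 28, 58.0 and 93.1 in Young tumor. The groups overlapped, and the log2 fold change of 0.80 (SE 0.37) gave an edgeR adjusted p of 0.234, so the call was lost. The deposited counts do not separate a larger amount of Hoxb3 from a different division of reads at this locus.

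**Figure D5:**
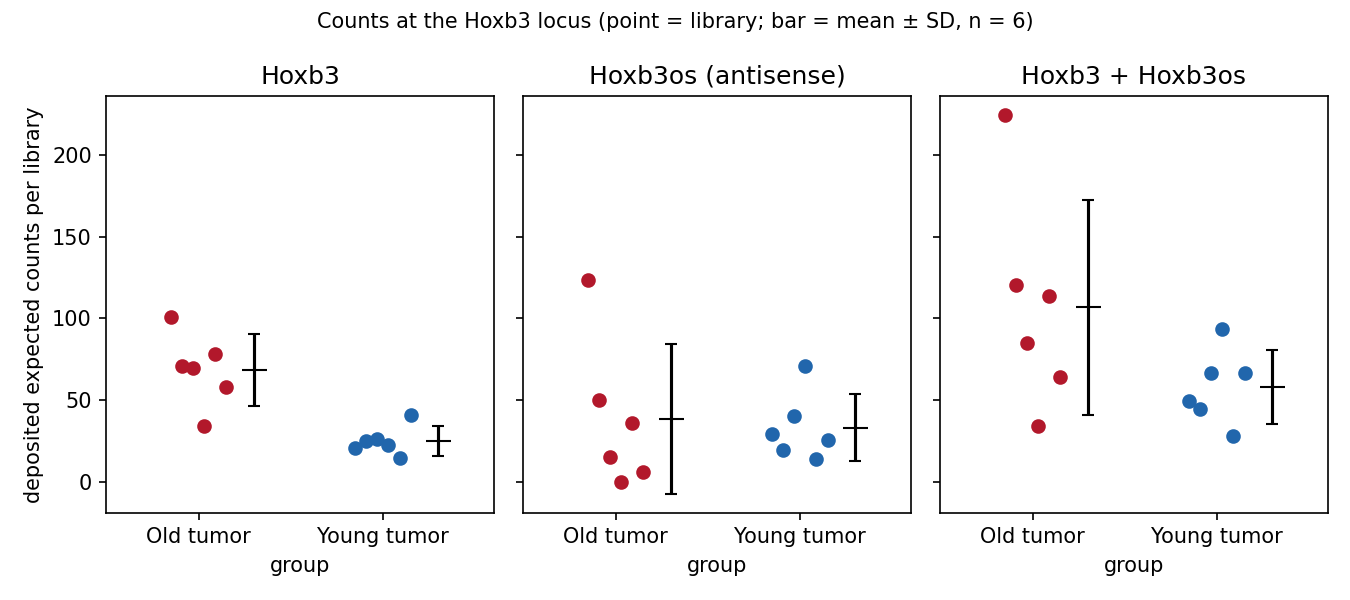
Deposited expected counts of Hoxb3, of antisense Hoxb3os and of their sum in each library (Old tumor left, Young tumor right), with mean ± SD beside the points. Old tumor lies above Young tumor for Hoxb3 except Old tumor 4 (34) below Young tumor 6 (41.04), and the groups overlap widely for Hoxb3os and for the sum.

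The tested neighbours and the tested paralog of Hoxb3 gave no call. Its paralog Hoxa3, which patterns thymus and neck, had a lowest, median and highest level of 0.74, 1.56 and 2.82 TPM in Old tumor and 0.54, 0.99 and 1.23 TPM in Young tumor. The groups overlapped, with a log2 fold change of 0.71 (adjusted p = 0.20 by edgeR, SE 0.30). Without Old tumor 1 that value was 0.46 (SE 0.28). Hoxa3 overlaps 5 other genes, and with their counts added it had 0.63 (SE 0.30). Hoxb2, next to Hoxb3, had a log2 fold change of -0.19 (SE 0.25), and of -0.45 (adjusted p = 0.198 by edgeR, SE 0.21) without Old tumor 1. With the counts of Hoxb3os added, Hoxb2 had -0.086 (SE 0.36) over all libraries. Hoxb4, on the other side of Hoxb3, is given above, and the paralog Hoxd3 was too low to test. Hoxb5, a gut and neural crest gene, had 0.67, 1.25 and 1.97 TPM as lowest, median and highest in Old tumor and 0.55, 0.88 and 1.16 TPM in Young tumor, with a log2 fold change of 0.37 (adjusted p = 0.48 by edgeR, SE 0.28), and of 0.16 (SE 0.27) without Old tumor 1. With the counts of overlapping genes added, Hoxb5 had 0.20 (SE 0.25).

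Hoxc4, a spinal cord and lymphocyte gene, had the largest fold change of the tested members, with a wide spread. Its lowest, median and highest levels were 0.18, 0.43 and 2.56 TPM in Old tumor and 0.10, 0.26 and 0.39 TPM in Young tumor. The highest value was in Old tumor 1, and Old tumor 4 lay within the young range. The log2 fold change was 1.60 (adjusted p = 0.147 by edgeR, SE 0.59) with all libraries and 0.77 (SE 0.43) without Old tumor 1. Hoxa2, which patterns the second branchial arch, had 0.55, 0.68 and 1.67 TPM in Old tumor and 0.19, 0.58 and 0.70 TPM in Young tumor, with a log2 fold change of 0.61 (adjusted p = 0.35 by edgeR, SE 0.36), and of 0.30 (SE 0.32) without Old tumor 1. Hoxd8 had a log2 fold change of 0.46 (adjusted p = 0.51 by edgeR, SE 0.38), and of 0.013 (SE 0.29) without Old tumor 1. The remaining tested members, Hoxa4, Hoxa7, Hoxb6, Hoxb7 and Hoxb8, had log2 fold changes of -0.095 to 0.65 with all libraries and of -0.37 to 0.012 without Old tumor 1. With the counts of overlapping genes added, Hoxa7 moved from 0.65 to 0.22 (SE 0.43) and Hoxa4 from 0.24 to 0.35 (SE 0.38). Hoxa2 then had 0.62 (SE 0.34).

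Members varied together across libraries about as much between clusters as within them. With group means removed, log2 CPM over the 12 libraries had a median Pearson r of 0.64 over 31 pairs of tested members within a cluster and 0.69 over 60 pairs between clusters. The median was 0.65 over 9 pairs of tested genes with no other member between them in their cluster, and 0.70 over 8 pairs of paralogs. Without Old tumor 1 the medians were 0.43 within and 0.43 between clusters. Single pairs then ran from -0.14 to 0.77 within a cluster and from -0.31 to 0.87 between clusters. The r of other gene pairs was not computed, so these values do not set the members apart from other genes. These points share library, depth and cell composition, and are a description.

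The genes outside the clusters with the pattern most like Hoxb3 were Pcsk5 (r = 0.957), a proprotein convertase, Cmklr1 (0.944), the chemerin receptor, Gpr153 (0.920), Spon1 (0.918), an extracellular matrix protein, and Cpxm2 (0.916), a carboxypeptidase-like protein. Likeness was Pearson r of log2 CPM with group means removed over 12 libraries, ranked among 12938 genes with a mean of at least 1 CPM. Without Old tumor 1 these r were 0.960, 0.938, 0.906, 0.904 and 0.901.

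Of 46 noncoding and other genes listed at the clusters, 44 lie within their spans and 2, Hottip and Halr1, beside them, and 4 passed the filter (Hotairm1, Hoxaas2, Hoxaas3 and Hoxb3os) and 0 were called. At an unadjusted p under 0.05, with DESeq2, with limma-voom and without Old tumor 1 the count was also 0. Hotairm1, a myeloid RNA of the HoxA cluster, had a log2 fold change of 0.15 (SE 0.36), Hoxaas2 0.69 (SE 0.52) and Hoxaas3 -0.29 (SE 0.46). These were -0.036 (SE 0.37), 0.42 (SE 0.53) and -0.45 (SE 0.49) without Old tumor 1.

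Partners and regulators of Hox genes were tested in the same edgeR fit, where 21.1% of all tested genes had an unadjusted p under 0.05. All 9 TALE cofactors were tested, 0 were called and 1 had an unadjusted p under 0.05, with a median log2 fold change of 0.08. That gene was Meis2, at 0.22 (adjusted p = 0.165 by edgeR, SE 0.09), and Pknox2 had 1.02 (SE 0.52). The value of Pknox2 rested on Old tumor 1, the highest library at 8.28 CPM, and was 0.21 (SE 0.34) without it. Of the 6 ParaHox and Cdx genes, Cdx2, an intestinal regulator, and Pdx1, the pancreatic regulator, were tested, with log2 fold changes of -0.46 (adjusted p = 0.126 by edgeR, SE 0.16) and 0.014 (SE 0.13), and 0 were called, as for the TALE genes also with DESeq2, with limma-voom and without Old tumor 1. Of 24 Polycomb genes 1 was called, Phc3, a subunit of repressive complex 1, higher in Old tumor by 0.37 (adjusted p = 0.047 by edgeR, SE 0.09), with a list median of -0.018 and 10 at an unadjusted p under 0.05. Of 12 trithorax genes 1 was called, Kmt2d, a histone H3 methyltransferase, higher in Old tumor by 0.49 (adjusted p = 0.043 by edgeR, SE 0.11), with a list median of 0.17 and 6 at an unadjusted p under 0.05. Of 17 retinoic acid genes 16 were tested and 0 called, while 5 had an unadjusted p under 0.05, with a list median of 0.18. Aldh1a1, a retinoic acid-forming enzyme, had a log2 fold change of 1.14 (adjusted p = 0.078 by edgeR, SE 0.33), and Crabp1, a retinoic acid binding protein, 1.37 (adjusted p = 0.112 by edgeR, SE 0.46). Over all genes DESeq2 called 8.99%, counting also genes to which it gave no adjusted p, limma-voom 6.1% and the edgeR test without Old tumor 1 6.86%. In these 3 fits Phc3 and Kmt2d were called again and the trithorax count was 5, 4 and 4 of 12, all higher in Old tumor, while Rbbp4 was called lower by DESeq2 and without Old tumor 1. Aldh1a1 was called higher by DESeq2 and without Old tumor 1. Leaving out each of the 12 libraries in turn, Phc3 and Kmt2d kept their direction but were each called in 2 of the 12 fits, those without Old tumor 1 and without Young tumor 3. The fits with the gene length trend removed and with the replicate block, which called 111 and 1 genes in all, were not examined for these lists.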

How the data were processed

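RNA of tumor pieces with an integrity number above 8 was poly(A) selected and made into directional NEBNext libraries, per the labels' protocols. Reads were processed with cutadapt 2.3, STAR 2.7.0d and RSEM 1.3.1 with build mm10, per the submitters' processing notes; its annotation and strand setting were not given in the sources used here. For each library the authors deposited expected counts and TPM, together covering 47643 genes. Expected counts were rounded and tested with edgeR 4.0.16 (R 4.3.3; TMM, filterByExpr, quasi-likelihood F test, two-sided, no block), with p-values adjusted over 16013 genes; the SE is the log2 fold change divided by the root of F. Log2 CPM used a prior count of 2. TPM served for levels and as an alternative. Libraries were grouped by label, 6 and 6, at 17.8M to 24.1M counts. The code was tested on simulated counts. Alternatives used DESeq2 1.42.0, limma 3.58.1, other scalings and filters, a length correction, a replicate block, and leaving out each library. Summing overlapping genes, and co-variation without Old tumor 1, were added after the data were seen.

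Members and lists were chosen with earlier results of these data known. Values in detail are given for called members, the leading member of each cluster by TPM, the 6 smallest p, tested paralogs of called members, called list genes or else the 2 smallest p of a list, and the 5 genes most like Hoxb3. The posterior members, noncoding neighbours, and Hoxb2 and Hoxb8 were named after their values were seen. Motifs were searched in RefSeq windows (GRCm38.p6). Values of 1 member and of 1 marker gene are not reported here.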

Additional observations from a re-analysis of the deposited data

Results flagged for a closer look

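A gap between the highest or lowest library and its nearest neighbour was compared with the range of its group of 6, against Dixon's 95% critical value. In all, 22 of 55 groups passed, over 28 members with at least 10 counts in a library. Chance flags about 1 in 20 groups, but that rate cannot be set beside this count, because a member with 10 counts in a single library entered only through it and its gap followed from that.

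Old tumor 1, at the high end, accounted for 17 of the 22. Of these, 9 members (Hoxa9, Hoxa10, Hoxa11, Hoxc8, Hoxc9, Hoxc10, Hoxd9, Hoxd10 and Hoxd11) reached 10 counts only there, and 8 reached it in other libraries too. In HoxA the gap as a share of the range was 0.629 for Hoxa5, 0.718 for Hoxa7, 0.969 for Hoxa9, 0.849 for Hoxa10 and 0.969 for Hoxa11. In HoxB it was 0.689 for Hoxb6 and 0.673 for Hoxb7. In HoxC it was 0.676 for Hoxc4, 0.889 for Hoxc6, 0.986 for Hoxc8, 0.927 for Hoxc9 and 0.974 for Hoxc10. In HoxD it was 0.662 for Hoxd4, 0.673 for Hoxd8, 0.914 for Hoxd9, 0.931 for Hoxd10 and 1.0 for Hoxd11. All 9 fibroblast markers were also highest in that library, and their part in these gaps was not tested.

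Young tumor 4 was high for Hoxa13 at 0.871, which reached 10 counts only there, for Hoxa9 at 0.667 and for Hoxd10 at 1.0, of which Hoxa9 and Hoxd10 had 2 counts each there. Young tumor 2 was high for Hoxb7 at 0.667 and Old tumor 4 was low for Hoxb3 at 0.690.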

How the results depend on the processing

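The number of genes called was 362, against 1256 at an adjusted p under 0.1, 1439 with DESeq2, 977 with limma-voom, 151 with no filter beyond 1 count, 111 with the gene length trend removed, 1 with the replicate block, and 2 to 1106 leaving out each library. Hoxb3 was the 1 Hox member called under DESeq2, limma-voom, the scalings by RLE, upper quartile and total counts, both other filters, both TPM tests and the length correction. DESeq2 gave no adjusted p to some tested members, among them Hoxa2, Hoxa3, Hoxb5, Hoxc4 and Hoxd8, so it could not call these. The number called was 0 with the replicate block (Hoxb3 log2 fold change 1.38, adjusted p = 0.070) and with overlapping genes summed, and 0 to 1 leaving out each library. The log2 fold change of Hoxb3 was 0.71 on log2(TPM + 1), which understates low genes, and 0.80 to 1.57 otherwise. The median over tested members was 0.43, -0.017 without Old tumor 1 and 0.16 to 0.57 under the other alternatives. Without Old tumor 1, Hoxa5 reversed to -0.074 and Hoxb4 to -0.063, against highest values of 0.59 and 0.22 leaving out another library, and Hoxb4 was -0.0033 with limma-voom; the cause was not tested. The median within-cluster r was 0.64, but 0.48 by Spearman and 0.43 without Old tumor 1. Same-numbered libraries correlated in their deviations by -0.23 to 0.14. Without values for differently numbered pairs this does not settle whether the numbers mark a pairing or batch, and the labels give no such link. Hoxa2, Hoxa4, Hoxa7 and Hoxc4 could not be fitted under the filter of 1 CPM in 6 libraries. Low counts left all 16 posterior members untested.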
